A study of Mus musculus with 6 samples.

Results

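Albumin and 9 further plasma carrier proteins that hepatocytes make and secrete throughout life (Alb, Ttr, Rbp4, Gc, Ahsg, Fetub, Ambp, Cp, Selenop and Azgp1) were followed in RNA-seq of mouse liver. The genes were taken by symbol from a deposited table of 24411 genes. Of the 10, 9 had the same symbol in the table, and Selenop was listed there under its older symbol Sepp1, which RefSeq gives as a synonym. The table holds 3 p62+/+ livers and 3 p62S351E/+ livers (hereafter wild-type and knock-in), all of them collected at postnatal day 19. The p62S351E/+ mice are heterozygous knock-in animals in which Ser351 of p62, the protein encoded by Sqstm1, is replaced by the phosphomimetic residue Glu, and they stand for constant phosphorylation at the site that increases binding of p62 to KEAP1 and so frees the transcription factor NRF2. The allele was made by prime editing in RENKA4, an embryonic stem cell line derived from C57BL/6N, and was passed on by a male chimera of low chimerism whose sperm was used for in vitro fertilization, so all knock-in animals descend from that founder. The p62S351E/+ mice are growth-retarded and show serum signs of malnutrition and dehydration, and neither feeding nor sex is given for the livers sequenced here.

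Plasma proteins of this kind leave the hepatocyte through the endoplasmic reticulum and Golgi apparatus. Their mRNA was followed here, and their secretion was not measured. Albumin carries fatty acids, bilirubin and many drugs and sets the osmotic pressure of plasma, and Gc, a member of the same family, carries vitamin D. Transthyretin (Ttr) carries thyroxine and docks with Rbp4, the carrier of retinol. Ahsg and Fetub are fetuins of the cystatin superfamily, Ahsg acting against calcification and Fetub as an inhibitor of astacin proteases such as ovastacin. Ambp is cut into alpha-1-microglobulin, a lipocalin that binds heme, and bikunin, a protease inhibitor. Ceruloplasmin (Cp) is a copper-dependent ferroxidase, Selenop delivers selenium to other organs, and Azgp1 is a soluble glycoprotein with an MHC class I fold.

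The control regions of the genes the results turn on are shown first, because the albumin promoter is a classical target of liver-enriched factors. According to RefSeq (GRCm38.p6, the build of mm10), Alb occupies chromosome 5 from 90460870 to 90476602, and Gc lies on the same chromosome from 89417511 to 89457898. Ahsg, on chromosome 16 from 22892015 to 22899451, is followed among protein-coding genes by Fetub, from 22918382 to 22939768. The 150 bases before the first start site of each are given on the strand of the gene. Capitals mark matches, on either strand, to the searched letters. These were GTTAATNAT and the shorter GTTAAT for the factor HNF1 and TTNNGNAAT for C/EBP. For FOXA they were TGTTTNC, and the TATA box was searched as TATAAA. The core of the antioxidant response element, which NRF2 binds, was searched as TGACNNNGC. The windows are chr5:90460720-90460869 on the plus strand (Alb), chr5:89457899-89458048 on the minus strand (Gc), chr16:22891865-22892014 on the plus strand (Ahsg) and chr16:22918232-22918381 on the plus strand (Fetub).
Alb: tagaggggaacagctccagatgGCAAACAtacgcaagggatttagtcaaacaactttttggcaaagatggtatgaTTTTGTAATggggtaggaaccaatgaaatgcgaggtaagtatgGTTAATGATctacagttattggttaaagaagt
Gc: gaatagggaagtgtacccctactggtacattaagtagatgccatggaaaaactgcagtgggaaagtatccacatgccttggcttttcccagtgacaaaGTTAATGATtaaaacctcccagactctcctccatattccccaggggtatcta
Ahsg: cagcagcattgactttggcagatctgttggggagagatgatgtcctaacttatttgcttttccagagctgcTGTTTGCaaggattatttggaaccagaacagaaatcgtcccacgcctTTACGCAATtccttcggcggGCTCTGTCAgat
Fetub: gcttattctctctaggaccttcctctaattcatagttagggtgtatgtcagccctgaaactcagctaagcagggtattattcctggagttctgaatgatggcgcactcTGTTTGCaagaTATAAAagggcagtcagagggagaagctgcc

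Alb and Gc share the 9 bases GTTAATGAT, which begin 32 bases before the start of Alb and 52 bases before that of Gc. RefSeq windows from 250 bases before to 50 bases after each start site were at hand for 9 of the 10 genes, 14 windows in all because several genes have more than 1 start. GTTAATNAT was found in 3 of these 14 windows, those of Alb, Gc and Cp, and in 0.801% of all 32851 windows of that length in the RefSeq table used. The shorter GTTAAT was found in the same 3 windows and in 7.1% of all. The windows of the 3 Selenop starts overlap in sequence, as do those of the 2 Cp starts, so a match can be counted more than once. TGTTTNC was found in 9 of the 14 windows, which belong to 6 genes, and in 20.5% of all windows, and TTNNGNAAT in 2 of the 14 and 11.5% of all. TGACNNNGC was found in 3 of the 14 windows, those of Ahsg, Ambp and the second start of Fetub, and in 12.4% of all windows. HNF4 was searched as CAAAGTCCA, which was in 0 of the 14 windows and 0.475% of all. These are matches of letters in a fixed window and no binding was measured.

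The libraries held between 8696712 and 10341622 estimated counts, but only 134911 to 315436 of these per library lay outside Rn45s (the ribosomal RNA precursor), Lars2 and Mir6236. Liver identity was clear in every library, since all 10 genes described here and all 10 further hepatocyte markers (such as Apoa1, Apob and Fgb) were detected in each. Libraries also stood apart in transcripts that are not of liver. The 12 neuron and glia markers took 0.792% to 0.841% of the counts outside the 3 dominant genes in wild-type mice and 0.744% in knock-in mouse 3, but 0.0022% and 0.0026% in knock-in mice 1 and 2, where 9 and 8 of the 12 were at 0. Xist, which is transcribed in females, had 70.8, 1505 and 1071 counts in wild-type mice and 1, 0 and 1537 counts in knock-in mice. Results that rest on knock-in mice 1 and 2 or on mouse 3 are therefore given separately as well. Counts were scaled by edgeR's TMM factors (normalized counts), and genotypes were set against each other with the quasi-likelihood test of edgeR and Benjamini-Hochberg adjustment over 5945 genes. A gene was called at an adjusted p below 0.05 and a log2 fold change beyond 1 in either direction.

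Of the 10 carrier protein genes, all 10 had enough counts to be tested, 1 was called higher in knock-in mice (Fetub) and 0 were called lower, by edgeR. Over all tested genes, 0.841% were called higher and 0.0841% lower. Fitted log2 fold changes of the 10 genes were all above 0 and had a median of 0.65, against a median of -0.03 over all tested genes, of which 48.0% were above 0. In 5 of the 10 (Alb, Rbp4, Gc, Fetub and Selenop) every knock-in mouse lay above every wild-type mouse, and in 0 of the 10 below, where 12.0% of all tested genes were separated upwards and 14.7% downwards. A different number of hepatocytes in a sample and a different amount of RNA per hepatocyte cannot be told apart in bulk liver.

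**Figure D1:**
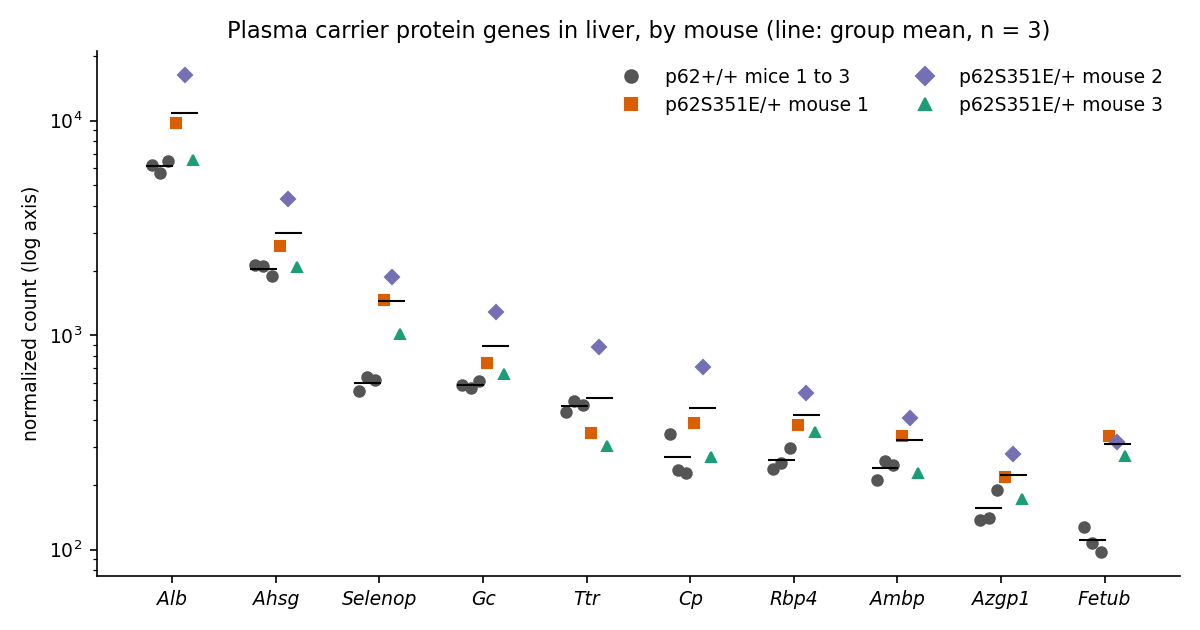
Normalized counts of the 10 genes (log axis) in each mouse, with grey circles for wild-type mice, coloured symbols for the 3 knock-in mice and lines for group means (n = 3 each). The Fetub and Selenop points of all knock-in mice lie above those of the wild-type mice, while mouse 3 sits close to the wild-type mice for Alb and Ahsg.

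Fetub, which encodes fetuin-B, rose in knock-in mice. Its normalized counts were 128, 107 and 97.6 in wild-type mice and 339, 317 and 272 in knock-in mice. All 3 knock-in mice lay far above all 3 wild-type mice. Means were 111 ± 15.3 and 309 ± 34.2 normalized counts (SD, n = 3 each), a 2.79-fold difference. The fitted log2 fold change was 1.48 (standard error, SE, 0.21, adjusted p = 0.0205, edgeR's quasi-likelihood test). Fetub was also called with knock-in mouse 3 alone against the 3 wild-type mice (log2 fold change 1.31, adjusted p = 9.07e-05, edgeR), a fit in which the 1 knock-in library is taken to vary as the wild-type libraries do. The call was lost, with log2 fold changes between 1.40 and 1.60, when wild-type mouse 1, wild-type mouse 2, wild-type mouse 3 or knock-in mouse 1 was left out (adjusted p = 0.0953, 0.151, 0.133 and 0.0890, edgeR), and also with library size as the only scaling (log2 fold change 0.78, adjusted p = 0.420, edgeR).

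Ahsg, the neighbouring protein-coding gene and the other fetuin, was far more abundant and differed less. It had 2111, 2108 and 1877 normalized counts in wild-type mice and 2594, 4290.0 and 2077 in knock-in mice. The knock-in mouse 3 lay within the wild-type range, and the log2 fold change of 0.56 (SE 0.29) did not pass (adjusted p = 0.414, edgeR). Within a library, where scaling between libraries plays no part, there were 0.0604, 0.0508 and 0.0520 Fetub counts per Ahsg count in wild-type mice and 0.131, 0.0740 and 0.131 in knock-in mice, without overlap; this pair was chosen after its values were seen and was not tested.

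The fetuins lie in a row of protein-coding genes of the cystatin superfamily that continues with Hrg (histidine-rich glycoprotein, a carrier of heme and divalent metals) and the kininogen genes Kng2 and Kng1, ending at position 23082078 of chromosome 16. Hrg was called and rose, with means of 109 ± 9.38 (wild-type) and 403 ± 81.1 (knock-in) normalized counts (SD over 3 mice), a log2 fold change of 1.89 (SE 0.23, adjusted p = 0.00891, edgeR). Kng2 and Kng1 each had a log2 fold change of 0.97 (standard errors 0.27 and 0.24) and did not pass (adjusted p = 0.169 and 0.123, edgeR), although the groups did not overlap for either. Reads can be divided between these 2 paralogs, whose counts were not whole numbers. In the row of 5, all fold changes were above 0, against 48.0% of all tested genes. The 2 calls belong to adjacent genes, Fetub and Hrg, where 0.841% of all tested genes were called higher. Hrg, Kng2 and Kng1 were named after their values were seen.

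**Figure D2:**
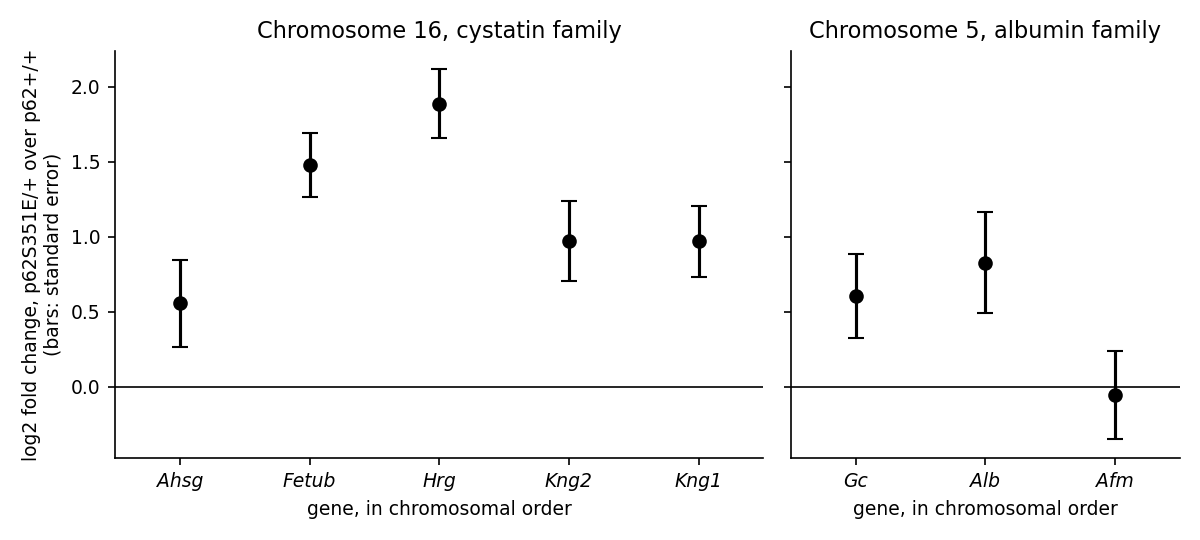
Log2 fold changes (knock-in over wild-type, bars for standard errors, n = 3 mice each) of 5 cystatin superfamily genes on chromosome 16 and 3 albumin family genes on chromosome 5, in chromosomal order. Hrg (1.89) and Fetub (1.48) stand highest, and Afm (-0.06) lies at 0 while Alb (0.83) and Gc (0.60) lie above it.

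Selenop, the selenium carrier, had the second largest difference. Its normalized counts were 547, 637 and 618 in wild-type mice and 1461, 1867 and 1011 in knock-in mice, with no overlap between genotypes. Means were 600.2 ± 47.5 and 1446 ± 428 (SD, n = 3 each), a 2.41-fold difference, and the log2 fold change of 1.27 (SE 0.26) narrowly missed the threshold (adjusted p = 0.0803, edgeR). DESeq2 and limma-voom, run as alternatives, did call it (adjusted p = 0.0424 and 0.00728). Leaving out wild-type mouse 1, 2 or 3 or knock-in mouse 1 gave an adjusted p of 0.339, 0.321, 0.335 and 0.270 (edgeR). Without knock-in mouse 2 or 3 the adjusted p was 0.0911 and 0.000259, and with library size as the only scaling 0.436 (edgeR). In knock-in mouse 3 alone the log2 fold change was smaller, 0.76 (standard error 0.16, adjusted p = 0.00625, edgeR). Partner genes of selenoprotein synthesis and other selenoproteins, a list of 12 with 9 tested, had 0 called in either direction by edgeR and a median log2 fold change of 0.33. The farthest from 0 was Txnrd1, a selenoprotein and NRF2 target, with 21.8 ± 4.62 and 49.3 ± 10.1 normalized counts (SD over 3 mice, log2 fold change 1.17 with SE 0.26, adjusted p = 0.101, edgeR).

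Alb was the most abundant of the 10 genes, and its difference came mainly from knock-in mice 1 and 2. Normalized counts were 6236, 5728 and 6452 in wild-type mice and 9713, 16390.0 and 6542 in knock-in mice. The groups did not overlap, but mouse 3 exceeded the highest wild-type mouse only slightly. The log2 fold change was 0.83 (SE 0.34, adjusted p = 0.319, edgeR), and the knock-in mice varied far more (SD of 5027, n = 3) than the wild-type mice (SD of 371, n = 3). Gc, the vitamin D carrier, showed the same order of mice, with 583, 569 and 611 normalized counts in wild-type mice and 741, 1278 and 658 in knock-in mice (log2 fold change 0.60 with SE 0.28, adjusted p = 0.362, edgeR). Of the other albumin family genes on chromosome 5, Afm, a carrier of vitamin E, had a log2 fold change of -0.06 (SE 0.29, adjusted p = 0.936, edgeR), and the fetal gene Afp had at most 1 count in any library.

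Ttr departed from the other members. Its normalized counts were 436, 491 and 472 in wild-type mice and 348, 878 and 305 in knock-in mice, so that knock-in mice 1 and 3 lay below all wild-type mice and mouse 2 above them. The log2 fold change of 0.13 (SE 0.39, adjusted p = 0.888, edgeR) changed sign in 9 of 19 alternative fits and sets no direction. Rbp4, the retinol carrier that circulates bound to transthyretin, had 237, 253 and 296 normalized counts in wild-type mice and 379, 537 and 353 in knock-in mice, without overlap (log2 fold change 0.69 with SE 0.24, adjusted p = 0.257, edgeR). Ttr counts per Rbp4 count were 1.84, 1.94 and 1.59 in wild-type mice and 0.920, 1.64 and 0.864 in knock-in mice; knock-in mouse 2 overlapped the wild-type range, and the pair was chosen after the values were seen. The epithelium of the choroid plexus also transcribes Ttr, and of 10 markers of that epithelium 7, among them Folr1, Clic6 and Otx2, were at 0 in all 6 libraries. Summed counts of the 10 markers were 55 to 72 in wild-type mice and 18 to 86 in knock-in mice, nearly all from Enpp2, which liver also expresses.

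Genes of retinol handling and of thyroid hormone handling or response numbered 10, of which 5 were tested. By edgeR 0 were called higher and 1 was called lower, where 0.841% of all tested genes were called higher and 0.0841% lower. That gene was Thrsp, a thyroid hormone-responsive gene of lipogenesis, which fell, with means of 24.9 ± 0.75 (wild-type) and 5.44 ± 1.41 (knock-in) normalized counts (SD over 3 mice, log2 fold change -2.13 with SE 0.31, adjusted p = 0.0205, edgeR).

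The remaining members, Ambp, Cp and Azgp1, overlapped between genotypes. Cp had 344, 235 and 227 normalized counts in wild-type mice and 390.4, 711 and 270.4 in knock-in mice (log2 fold change 0.77 with SE 0.36, adjusted p = 0.364, edgeR). Ambp had 210.3, 259 and 249 against 337, 412 and 227 (log2 fold change 0.44 with SE 0.26, adjusted p = 0.451, edgeR), and Azgp1 had 138, 141 and 190.0 against 219, 278 and 173 (log2 fold change 0.52 with SE 0.25, adjusted p = 0.377, edgeR). In all 3 genes knock-in mouse 3 lay inside the wild-type range and mice 1 and 2 above it. Genes of copper and iron handling, a list of 9 with 5 tested, had 0 called in either direction by edgeR. The farthest from 0 was the metallothionein gene Mt2 (33.7 ± 17.4 and 18.1 ± 5.38 normalized counts, SD over 3 mice, log2 fold change -0.88 with SE 0.43, adjusted p = 0.378, edgeR).

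The 3 knock-in mice were thus unequal across the members. In mouse 2 all 10 genes lay above every wild-type mouse, in mouse 1 9 of 10 with Ttr below, and in mouse 3 5 of 10 with Ttr below. The corresponding shares of all tested genes were 34.5%, 33.8% and 27.7%. Median log2 differences of the 10 genes from the wild-type mean were 1.10 in mouse 2, 0.51 in mouse 1 and 0.12 in mouse 3, and mouse 3 had the lowest of the 3 values for all 10 genes. Without knock-in mouse 3, edgeR called 4 of the 10 higher (Alb, Cp, Fetub and Selenop, with log2 fold changes of 1.09, 1.03, 1.57 and 1.47), where 5.21% of all genes were called higher. At an adjusted p below 0.05 and any fold, that fit had 8 of 10 members higher, all but Ttr and Azgp1, against 7.00% of all genes. With mouse 3 alone against the wild-type mice, 1 member (Fetub) was called, against 0.949% of all genes, and 2 (Fetub and Selenop) passed at any fold, against 1.05%.

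**Figure D3:**
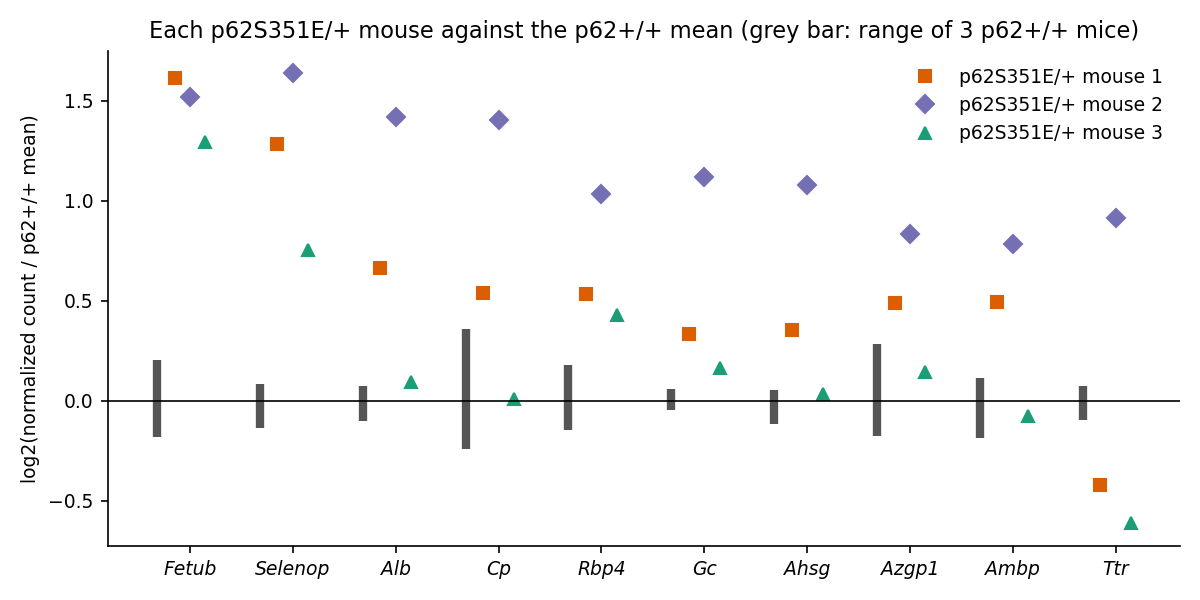
Log2 ratio of each knock-in mouse to the wild-type mean for the 10 genes, ordered by fitted fold change, with grey bars for the range of the 3 wild-type mice. Mouse 2 is highest for 9 of 10 genes, mouse 3 is lowest for all 10, and all 3 mice are above the grey bar for Fetub, Selenop, Rbp4, Gc and, by a small margin for mouse 3, Alb.

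Mice 1 and 2 differ from mouse 3 in more than these genes. They lack the brain transcripts, have Xist counts of 0 or 1, and hold fewer counts outside the 3 dominant genes (1.30% and 2.25% of all counts, against 3.12% in mouse 3 and 3.01% to 3.30% in wild-type mice). These differences entered 2 fits, which cannot separate them from one another or from other traits of mice 1 and 2. The summed brain markers were 3 and 6 counts in mice 1 and 2 and 2182 to 2518 in the other libraries. As a covariate they nearly mark those mice, so that this fit rests mainly on mouse 3. For Alb it gave a log2 fold change of 0.13, against 0.10 with mouse 3 alone. With the summed brain markers as a covariate the median of the 10 members was 0.15, and with Xist as a covariate it was 0.28. Fetub stayed called in both fits (adjusted p = 0.0403 and 0.0286, edgeR), and Selenop was called in neither (adjusted p = 0.455 and 0.182, edgeR). Stellate cell and fibroblast markers, a list of 6, took 0.0623% to 0.111% of the counts outside the dominant genes in wild-type mice and 0.0315% to 0.0519% in knock-in mice, without overlap. The collagen genes Col3a1 and Col1a1 had log2 fold changes of -1.94 and -1.62 (SE 0.35 and 0.61). Dcn and Reln had -0.30 and 0.05 (SE 0.31 and 0.27) and overlapped between genotypes. By edgeR 0 of the list were called, and all of the list but Des were detected in every library. The part of these markers was not tested.

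The summed share of the 10 genes does not depend on TMM. They took 4.60%, 4.53% and 4.73% of the counts left once Rn45s, Lars2 and Mir6236 were set aside in wild-type mice and 6.43%, 9.24% and 4.87% in knock-in mice. Exact (Clopper-Pearson) 95% intervals, which cover counting error only, were 4.65% to 4.81% for the highest wild-type library and 4.79% to 4.94% for the lowest knock-in library, and these overlap. The groups did not overlap (4.62 ± 0.102% and 6.84 ± 2.22%, SD, n = 3 each; exact two-sided permutation p = 0.1, the smallest that 3 against 3 mice allow). Alb alone took 2.46% to 2.75% in wild-type mice and 2.68% to 5.62% in knock-in mice, which overlap, and the other 9 genes together took 1.98% to 2.06% and 2.19% to 3.62%, which do not. As a share of all counts, dominant genes included, the 10 genes took 0.145 ± 0.00808% and 0.148 ± 0.0622% (SD, n = 3 each; exact two-sided permutation p = 0.9).

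**Figure D4:**
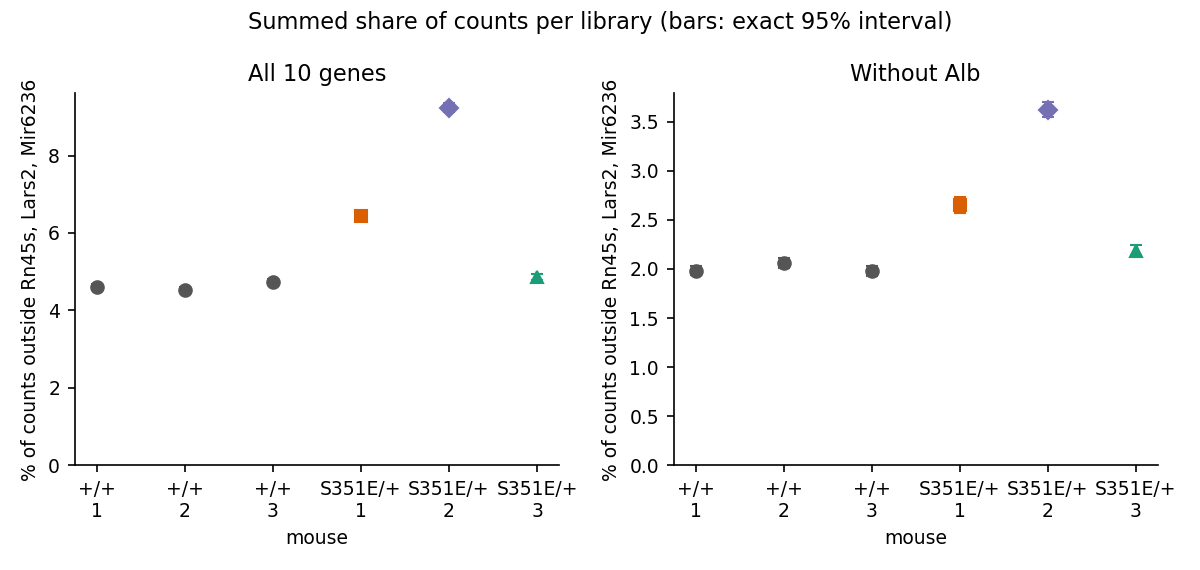
Share of counts other than Rn45s, Lars2 and Mir6236 (%, axis from 0) taken by the 10 genes together and by the 9 genes other than Alb, per library with exact 95% intervals. Mouse 2 of the knock-in group reaches 9.24% in the left panel, and mouse 3 (4.87%) lies just above the wild-type mice (4.53% to 4.73%).

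Other hepatocyte transcripts were shared out in a like way. The 10 hepatocyte markers outside this group took 2.49% to 2.86% in wild-type mice and 2.97% to 4.07% in knock-in mice, also without overlap, and 0 of them were called by edgeR. Counts of the carrier protein genes per count of these markers were 1.61, 1.74 and 1.90 in wild-type mice and 1.72, 2.27 and 1.64 in knock-in mice, and these ranges overlap.

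Ratios within a library set each member against albumin without scaling between libraries. Per 100 Alb counts there were 6.99, 8.58 and 7.32 Ttr counts in wild-type mice and 3.59, 5.36 and 4.67 in knock-in mice, a difference of -0.76 on the log2 scale without overlap. Selenop had 8.76, 11.1 and 9.57 counts per 100 Alb counts in wild-type mice and 15.0, 11.4 and 15.5 in knock-in mice, a log2 difference of 0.50 without overlap. Each of these 2 ratios had an exact two-sided permutation p of 0.1, the smallest possible, and 0.45 after adjustment over the 9 ratios. The other 7 ratios overlapped. Fetub had 2.05, 1.87 and 1.51 per 100 Alb counts in wild-type mice and 3.49, 1.94 and 4.16 in knock-in mice, where mouse 2, the mouse with the most Alb, lay inside the wild-type range. Against the sum of the other 9 members, Ttr was lower and Selenop and Fetub were higher in every knock-in mouse than in every wild-type mouse. Each of these 3 ratios also had an exact two-sided permutation p of 0.1, and 0.333 after adjustment over 10 ratios.

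**Figure D5:**
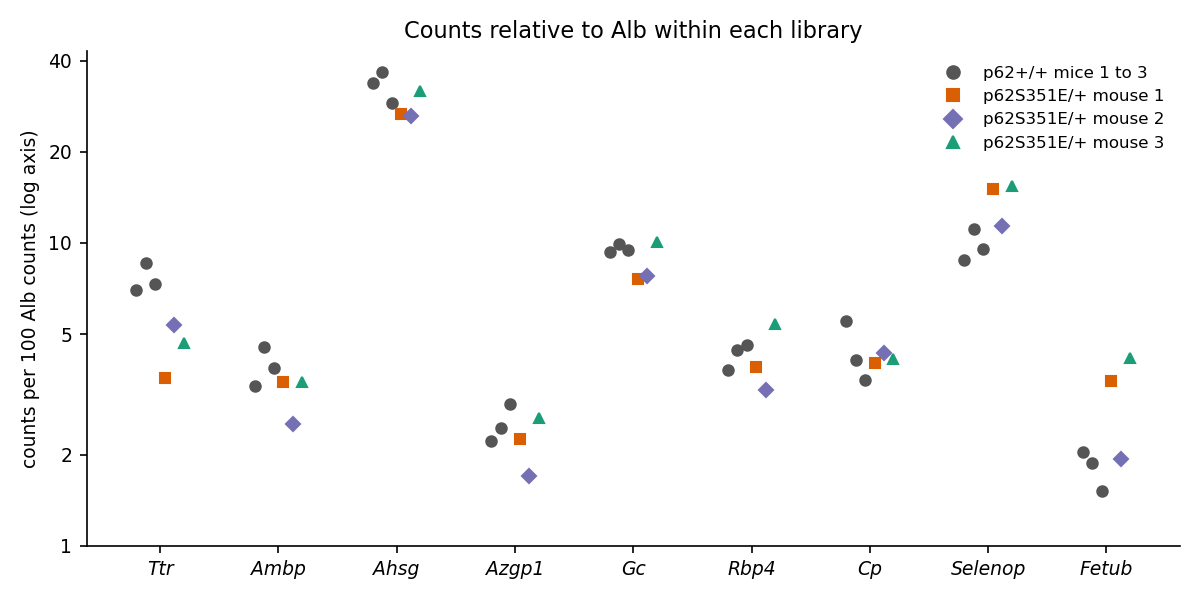
Counts of 9 genes per 100 Alb counts (log axis) in each library, ordered by the difference between genotypes. Ttr of all knock-in mice (3.59 to 5.36) lies below the wild-type mice (6.99 to 8.58), and Selenop (11.4 to 15.5) lies above them (8.76 to 11.1).

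The order of levels was compared per length, as normalized counts per kilobase of exon in the GENCODE annotation. In wild-type mice Alb led with 3018 ± 183, followed by Ahsg with 1192 ± 78.9, Ttr with 393 ± 23.8, Gc with 326 ± 12.0 and Selenop with 280 ± 22.1 (SD, n = 3 each). Below these came Rbp4 (213 ± 25.0), Ambp (189 ± 20.4), Azgp1 (120.4 ± 22.6), Fetub (56.5 ± 7.81) and Cp (46.4 ± 11.3, all SD, n = 3). Neighbours in this order did not overlap between mice, except Rbp4 with Ambp and Fetub with Cp. In knock-in mice Alb (5350.0 ± 2471) and Ahsg (1753 ± 679) were again first, and Selenop followed with 674 ± 200 (SD, n = 3 each), but from Selenop down to Fetub each gene overlapped the next. Fetub (158 ± 17.5) and Cp (78.8 ± 39.2, SD, n = 3 each) no longer overlapped.

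Other plasma carrier and binding proteins were examined as a list of 22, of which 20 were tested. Only Hrg was called higher and 0 were called lower by edgeR, and the median log2 fold change was 0.36, with 17 of 20 above 0, against 48.0% of all tested genes. Groups did not overlap for 8 genes higher and 1 lower, against 12.0% and 14.7% of all tested genes. The gene farthest from 0 was Serpina7, which encodes thyroxine-binding globulin. It had raw counts of 6, 2 and 2 in wild-type mice and 12, 52 and 13 in knock-in mice (log2 fold change 3.54 with SE 0.79, adjusted p = 0.118, edgeR). Among 7 genes of plasma protein recycling and uptake, 5 were tested and 0 called by edgeR. The asialoglycoprotein receptor gene Asgr2 was farthest from 0 (24.0 ± 4.38 and 46.9 ± 8.25 normalized counts, SD over 3 mice, log2 fold change 0.96 with SE 0.25, adjusted p = 0.149, edgeR).

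The genes whose pattern over the 6 libraries was most like that of Alb were found by the root mean square difference of log2 normalized counts, centred per gene, among 268 genes with a mean of at least 100 normalized counts. They were Trf (transferrin, the iron carrier), at a distance of 0.072, C3 (complement), at 0.12, Slc27a5 (a bile acid and fatty acid CoA ligase), at 0.15, Tat (tyrosine aminotransferase), at 0.16, and Gc, at 0.16. Trf had 1308, 1178 and 1242 normalized counts in wild-type mice and 1916, 3426 and 1194 in knock-in mice, and as for Alb mouse 2 was highest and mouse 3 lowest of the knock-in mice, here inside the wild-type range. The genes most like Ttr were Apoc3, Slc10a1, Scp2, Itih4 and Rgn, at distances of 0.19 to 0.21.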

How the data were processed

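Liver RNA was depleted of ribosomal RNA and sequenced as 75-bp single-end reads. The authors mapped reads to mm10 with STAR and estimated counts per gene with RSEM (Trim Galore and DESeq2 are also named in the submitters' notes; versions and annotation are not given in the sources used here). The deposited expected counts are not normalized. Of nonzero values 6.45% were not whole (tolerance 0.001), but all values of the 10 members were. Values were rounded and tested in R 4.3.3 with edgeR 4.0.16 (filterByExpr with a minimum count of 10, TMM, robust quasi-likelihood fit with legacy set to FALSE), after tests on simulated data. Standard errors are the absolute log2 fold change over the square root of F. Alternatives used DESeq2 1.42.0, limma 3.58.1 (voom), other scalings and filters, covariates and left-out mice. The labels number the livers by mouse.

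Members and lists were chosen with earlier results of these data known. Named were all members, called genes and the gene farthest from 0 of each partner list, the 5 genes most like Alb and Ttr, and cluster neighbours (the last after their values were seen). P-values measure the spread between 3 mice per genotype, and the knock-in mice share a founder.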

Additional observations from a re-analysis of the deposited data

How the results depend on the processing

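Against 1 member called higher, DESeq2, limma-voom and testing without a filter gave 2 (Fetub and Selenop), and library size as the only scaling and the replicate block gave 0. Over all genes, in that order, 66 of 16283, 131 of 5945, 79 of 16283, 12 of 5945 and 20 of 6846 were called higher. The main fit called 50 of 5945 higher. Leaving out 1 mouse gave 0 to 4 (4 without knock-in mouse 3) and a median log2 fold change of 0.32 to 0.79. The count of members called lower was 0 under every alternative. The median log2 fold change of members (0.65) was -0.046 with library size only, 0.28 with the Xist covariate and, in fits added after seeing the data, 0.15 with the brain marker covariate and 0.13 with knock-in mouse 3 alone. Library size only also moved the median of all genes to -0.68, so that the members stood 0.63 above it, against 0.68 with TMM. DESeq2, no filter and scaling on counts outside the dominant genes moved the median of all genes to -0.18, -0.16 and -0.16. With library size only Gc, Ahsg, Ambp, Azgp1 and Ttr turned to -0.10, -0.17, -0.30, -0.20 and -0.59. Ttr was also negative with limma-voom (-0.038), scaling on counts outside the dominant genes (-0.084), at least 10 counts in every library (-0.15), the replicate block (-0.045), the Xist covariate (-0.42), without knock-in mouse 2 (-0.51, against 0.39 without mouse 3), the brain marker covariate (-0.54) and mouse 3 alone (-0.60). Ambp was -0.055 with that covariate and -0.066 with mouse 3 alone. The causes were not tested. The difference in summed share (2.23 percentage points) was 0.00263 of all counts and 0.246 with mouse 3 alone, and ran from 1.03 (without knock-in mouse 2) to 3.22 (without knock-in mouse 3) with 1 mouse left out. The number of Alb ratios without overlap, 2, ran from 2 to 4 with 1 mouse left out (4 without wild-type mouse 1 or knock-in mouse 3).

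Replicate numbers are shared by the genotypes but same-numbered libraries did not deviate together (correlations of 0.076, -0.091 and -0.0014), so no pairing was used; with the replicate block 20 genes were called higher and 2 lower, against 50 and 5, and Fetub had an adjusted p of 0.0831 (edgeR). Other counts over all genes that moved by over 1.5 times (higher and lower) were 66 and 8 with DESeq2, 131 and 12 with limma-voom, 60 and 8 with edgeR's legacy method, 12 and 2 with library size only, 79 and 10 without a filter, 70 and 29 with at least 10 counts in every library, 33 and 2 with the Xist covariate, 35 and 3 with the brain marker covariate and 72 and 23 with knock-in mouse 3 alone. Leaving out wild-type mouse 1, 2 or 3 gave 18 and 1, 16 and 1, and 20 and 1, and leaving out knock-in mouse 1, 2 or 3 gave 26 and 2, 29 and 4, and 333 and 975. The fewest counts of a member in a library were 113 (Fetub).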

Other observations

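Transcription factors known to act at albumin and other liver secretory promoters were followed as a list of 13, with 9 tested. By edgeR 0 were called in either direction, and the median log2 fold change was 0.12. Groups did not overlap for 3 genes higher and 1 lower, against 12.0% and 14.7% of all tested genes. The factor farthest from 0 was Onecut1 (HNF6), with raw counts of 29, 14 and 17 in wild-type mice and 1, 3 and 8 in knock-in mice, without overlap (log2 fold change -1.90 with SE 0.48, adjusted p = 0.133, edgeR). Hnf4a, named after its values were seen, had 108, 109 and 104 raw counts in wild-type mice and 69, 150 and 146 in knock-in mice, which overlap as raw counts but not after scaling (log2 fold change 0.73 with SE 0.24, adjusted p = 0.241, edgeR). Nr5a2, also named after its values were seen, had the smallest adjusted p of the list. It had 15, 13 and 13 raw counts in wild-type mice and 19, 24 and 28 in knock-in mice, without overlap. Its log2 fold change was 1.38 (SE 0.30, adjusted p = 0.0878, edgeR).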
